A study of Homo sapiens with 9 samples.

Results

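Small GTPases, among them Rac, Cdc42 and the Ras, Rap, Rab and Arf proteins, switch between a GTP-bound active form and a GDP-bound inactive form. Guanine nucleotide exchange factors (GEFs) load them with GTP, and GTPase-activating proteins (GAPs) speed GTP hydrolysis and so turn them off. In epithelial cells these regulators set actin contractility, cell junctions, migration and membrane traffic. The genes described here are those whose symbol starts with ARHGAP, ARHGEF, DOCK, TBC1D, RAPGEF, RASGRP, RASA, DENND, PLEKHG or ARFGEF, with the listed transcripts of a gene summed per gene number. There were 101 such genes of 6819 in the deposited table, and 339 of its 20909 transcripts belonged to them. A Gene Ontology term for exchange factor or GTPase activator activity was attached to 93 of the 101 in the deposited table. The 8 without one were TBC1D9B, TBC1D31, ARHGAP11B, ARHGAP11A-SCG5, TBC1D23, ARHGEF35, TBC1D32 and TBC1D3G, which entered by symbol alone.

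Total RNA was sequenced from Caki-1, an established human line of clear cell renal carcinoma. The control group (3 libraries) was labelled WT for genotype, and the SH1 and SH3 groups (3 libraries each) were labelled as knockdowns of TAF1D, a subunit of the SL1 factor of RNA polymerase I, made with short hairpin RNA. The labels do not say what separates SH1 from SH3, whether the controls carried a hairpin, or whether each library came from a culture of its own, so p-values here cover library-to-library spread that may be technical.

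The table is a selection of transcripts. All 20909 transcripts (100%) differed by at least 2-fold in estimated count between control 1 and SH1 1, against 51.6% to 67.8% of the members' transcripts in each of 35 remaining library pairs. This pair shaped which values are seen, and the tests were repeated on the other 7 libraries. TAF1D is not among the listed genes, so the level of the targeted gene was not analysed here. Listed transcripts held 1358215 to 1596467 estimated counts per library, 4.20% to 5.18% of all TPM, a share of the transcripts of a library, and the members held 18510 to 23136 of those counts. Of the markers of renal carcinoma and epithelium, PAX8 (1.44 to 9.97 FPKM) and KRT19 (15.4 to 89.5) were listed. PAX2, CA9, NDUFA4L2, VIM, KRT8, KRT18, EPCAM, CDH2, EGLN3 and ANGPTL4 were looked up and not listed. FPKM is a read level scaled to transcript length and library size. Among markers of other cell types PDGFRB, of fibroblasts, was at 0.16 to 0.34 FPKM and CD68, of macrophages, at 7.84 to 17.8 FPKM. The other fibroblast markers (COL1A1, COL1A2, COL3A1, DCN and LUM) and blood markers (PTPRC, CD3E, CD14, HBA1 and HBB) were not listed, nor was any marker of endothelium. Because the table is a selection, a marker that is not listed may still be expressed, and these few do not settle cell identity. In such bulk RNA, fewer cells of a type and less RNA per cell cannot be told apart.

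Each gene sum covers only what the table lists. RefSeq (GRCh38.p14) holds 1515 protein-coding transcripts of the 101 members, of which 247 were listed, and 164 protein-coding genes carry these prefixes. Most of the members came from TBC1D (27 genes, classed as Rab GAPs by symbol), ARHGAP (19) and DENND (13, Rab exchange factors). The exchange factors of the ARHGEF (17), DOCK (10) and PLEKHG (4) groups made up most of the rest. RAPGEF had 5 genes, RASA had 4, ARFGEF had 2, and RASGRP had 0. The median member had 2 listed transcripts, 32 members had 1, and ARHGAP27 had 19. Between 44 and 55 members had at least 100 estimated counts in a library.

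No member passed the test in any comparison. The edgeR quasi-likelihood test, adjusted by Benjamini-Hochberg over all 6398 genes that passed the filter on low counts, called 0 of 97 tested members in SH1 against control, where it called 2.14% of all genes tested. In SH3 against control it also called 0 of 97, against a background of 0.406%. For the average of SH1 and SH3 against control the count was 0 of 97 and the background 1.11%, and for SH3 against SH1 it was 0 of 97 and the background 1.36%. TBC1D3H, ARHGAP42, PLEKHG1 and DOCK3 had too few counts to be tested.

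At an unadjusted edgeR p under 0.05 there were 11 members in SH1 against control (11.3%, against 11.5% of all genes) and 11 in SH3 against control (11.3%, against 8.39%). There were 10 for the average (10.3%, against 10.2%) and 11 in SH3 against SH1 (11.3%, against 10.8%). DESeq2, run as an alternative, called 3, 5, 2 and 6 members in the same order, 3.09%, 5.15%, 2.06% and 6.19% of those tested, against 7.21%, 4.03%, 5.63% and 6.49% of all genes. The members' edgeR shares were thus near the background in each comparison. Library-size-scaled counts of all 3 libraries of SH1 lay outside the control range for 14 members (14.4%, against 19.7% of all genes), and those of SH3 did so for 12 (12.4%, against 17.3%). For SH1 and SH3 together the count was 3 (3.09%, against 6.35%), namely PLEKHG5, TBC1D9B and ARHGAP11A-SCG5, and SH3 lay outside the range of SH1 for 21 (21.6%, against 22.0%).

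**Figure D1:**
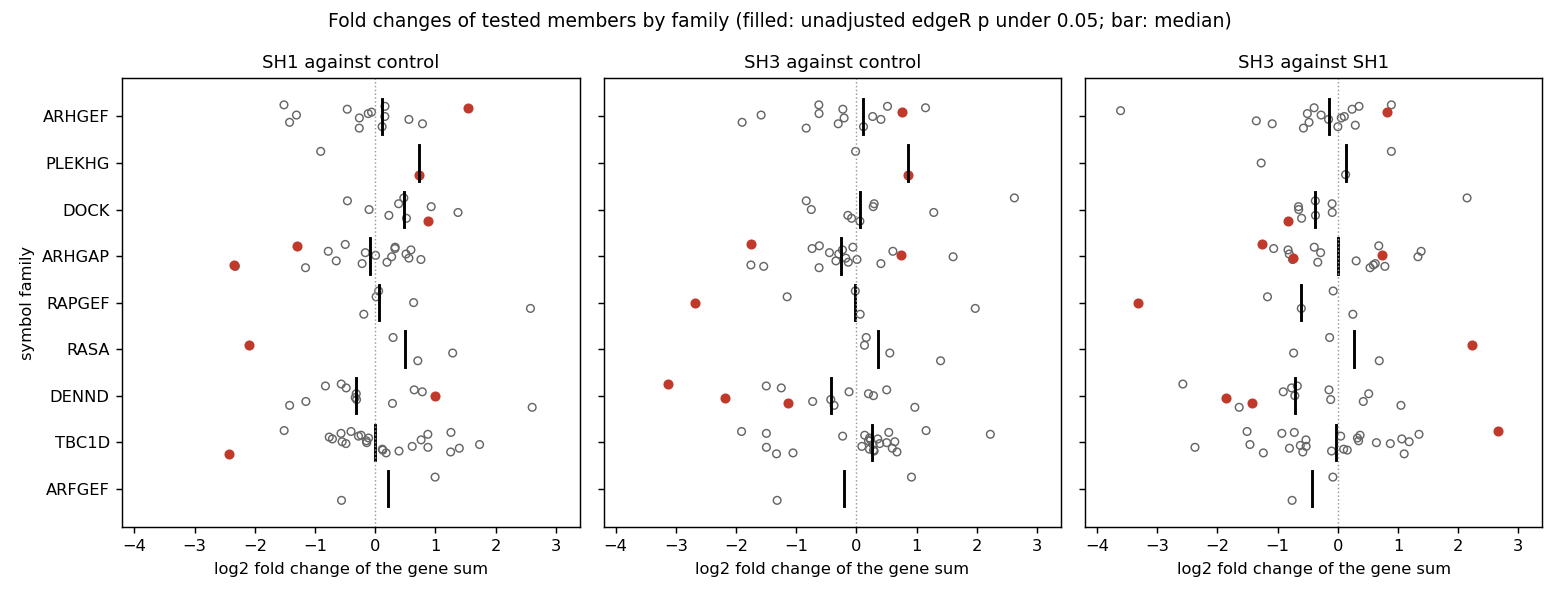
Log2 fold change of each tested member's summed estimated counts (horizontal axis) by symbol family (vertical axis) in 3 comparisons. Filled points have an unadjusted edgeR p under 0.05, bars are family medians, and members with all libraries of a group at 0 counts enter the median but are not drawn. Most families spread to both sides of 0. In SH3 against SH1 the lowest medians were those of DENND (-0.71), RAPGEF (-0.61), ARFGEF (-0.42) and DOCK (-0.37).

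The plot of fold changes by family shows members on both sides of 0. The median log2 fold change of the members was 0.12 in SH1 against control (53 positive, 44 negative, median of all genes -0.03) and 0.06 in SH3 against control (51 and 46, all genes -0.03). It was 0.04 for the average (53 and 44, all genes -0.07) and -0.28 in SH3 against SH1 (39 and 58, all genes 0.00). Over the alternative settings the SH1 median ran from 0.05 to 0.23 and that of SH3 against SH1 from -0.33 to -0.10. The SH3 median (-0.07 to 0.19) and the median of the average (-0.02 to 0.19) changed sign. Members with a group at 0 were also entered at a lower bound, computed from 3 counts over that group, and the members' medians were then the same. The bounds keep each member's direction, so medians this close to 0 could hardly move. A group was at 0 for 5 members in SH1, 6 in SH3, 5 in the average and 1 in SH3 against SH1. Among all genes this held for 208, 219, 124 and 191. In SH1 and in the average the 5 members were at 0 in control and could only be positive. The counts of positive and negative members include such fixed directions and are no evidence of a shift.

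Among the ARHGEF, DOCK and PLEKHG exchange factors, 5 of 29 tested had an unadjusted p under 0.05 and a higher level in SH1 than in control, and 0 a lower one (all genes 5.5% and 6.0%). ARHGEF37 and ARHGEF16 were among these 5 and had 0 counts in all controls. They passed the filter on low counts through knockdown libraries alone and could only be higher, so the count of 5 is no evidence of a shift. PLEKHG5, a RhoA exchange factor, was the member with the highest level in this group. Its summed level was 4.89, 6.77 and 6.91 FPKM in control 1 to 3, 9.38, 9.18 and 14.5 in SH1 1 to 3, and 10.9, 12.2 and 12.1 in SH3 1 to 3. All 6 knockdown libraries lay above all 3 controls. The means were 6.19 ± 1.13 FPKM in control, 11.01 ± 2.998 in SH1 and 11.7 ± 0.701 in SH3 (SD, n = 3 each).

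The log2 fold change of PLEKHG5 was 0.73 ± 0.24 (SE) in SH1 (edgeR adjusted p = 0.247, DESeq2 0.0482) and 0.86 ± 0.24 in SH3 (edgeR adjusted p = 0.288, DESeq2 0.0249). For the average of both it was 0.80 ± 0.21 (edgeR adjusted p = 0.188, DESeq2 0.00863). Without control 1 and SH1 1 the average was 0.71 ± 0.21 and did not pass either (edgeR adjusted p = 0.345). PLEKHG5 had 4 listed transcripts, and NM_001042663 was the highest of them in every library, with 47.2% to 88.0% of the sum.

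DOCK9, a Cdc42 exchange factor also known as zizimin, was highest in the SH1 libraries. It stood at 2.85, 2.71 and 3.26 FPKM in control, 6.08, 4.76 and 7.32 in SH1 and 3.03, 2.90 and 3.74 in SH3. Every SH1 library was above every control and every SH3 library, and the SH3 range overlapped that of the controls. In edgeR this came to a log2 fold change of 0.88 ± 0.21 in SH1 against control (edgeR adjusted p = 0.0974, DESeq2 0.00174) and -0.83 ± 0.21 in SH3 against SH1 (edgeR adjusted p = 0.148, DESeq2 0.00579). The first of these had the smallest edgeR adjusted p of all members in the 4 comparisons. It includes control 1 and SH1 1, and without them edgeR did not call DOCK9 either.

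ARHGEF2, also called GEF-H1, is a RhoA exchange factor held on microtubules. Its sum was 4.55, 4.97 and 6.32 FPKM in control, 5.89, 6.72 and 4.23 in SH1, and 9.61, 10.03 and 8.73 in SH3. The SH3 libraries were above all other libraries, while SH1 and control overlapped. On the log2 scale the difference was 0.75 ± 0.23 in SH3 against control (edgeR adjusted p = 0.359, DESeq2 0.0398) and 0.81 ± 0.23 in SH3 against SH1 (edgeR adjusted p = 0.198, DESeq2 0.0178). This difference was one of the sum and not of its highest listed transcript, XM_005245588, whose log2 fold changes were -0.15 and -0.29.

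**Figure D2:**
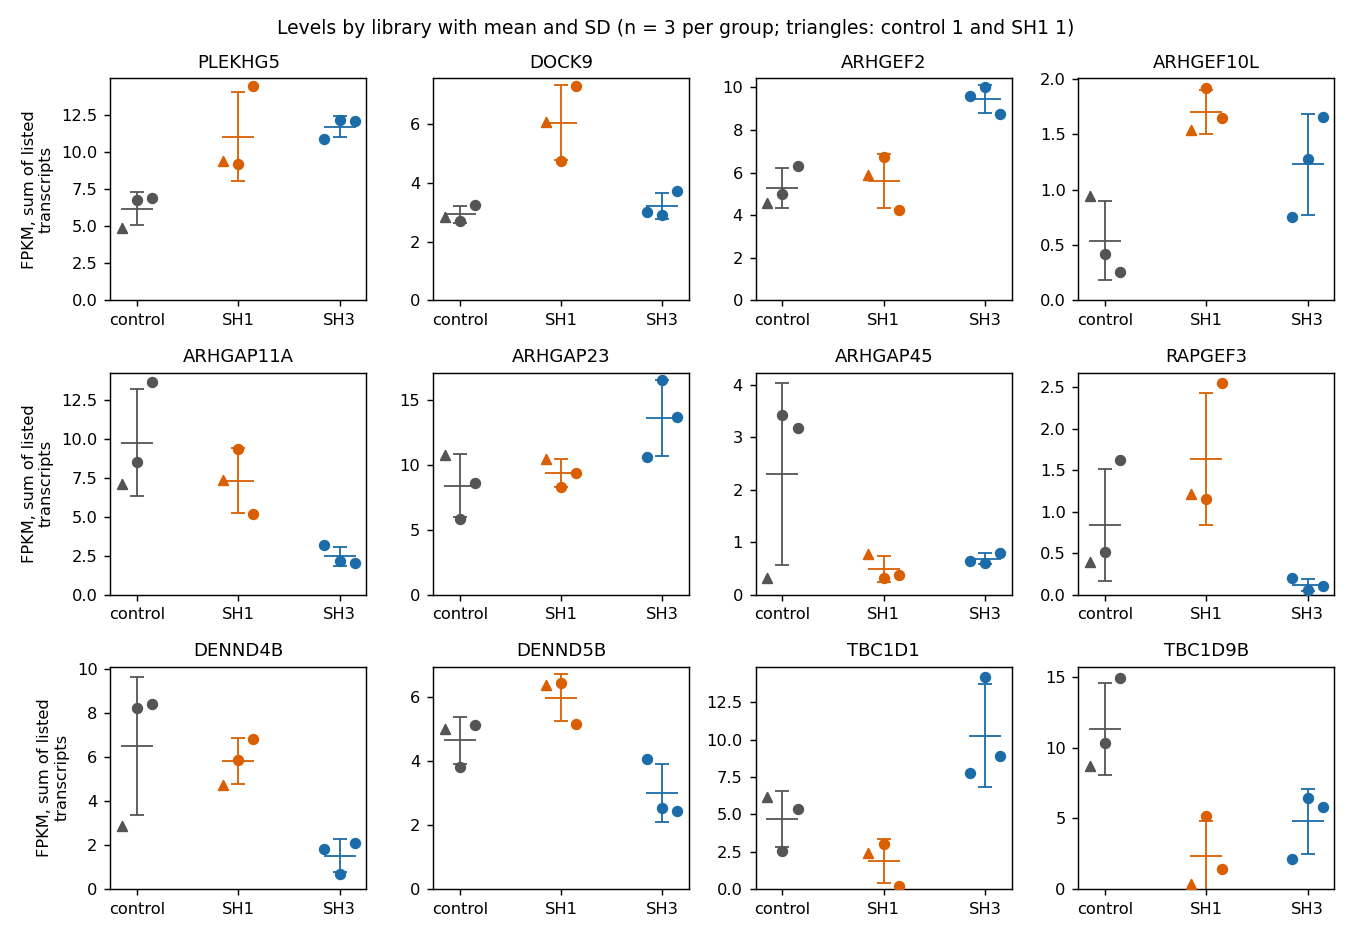
FPKM summed over listed transcripts (vertical axis, starting at 0) in each library of control, SH1 and SH3 for 12 members. Horizontal marks are means and error bars are SD (n = 3), triangles mark control 1 and SH1 1, and the lower SD of TBC1D9B in SH1 is cut at 0; PLEKHG5 lies above control in all 6 knockdown libraries, DOCK9 in SH1 and ARHGEF2 in SH3.

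ARHGEF10L, another exchange factor, was at 0.94, 0.42 and 0.26 FPKM in control, 1.54, 1.92 and 1.65 in SH1 and 0.75, 1.28 and 1.66 in SH3. SH1 did not overlap control and SH3 did. Its log2 fold change was 1.54 ± 0.54 in SH1 (edgeR adjusted p = 0.304). ARHGEF37 and ARHGEF16 each had 1 listed transcript and 0 in all 3 controls. ARHGEF37 was at 0.42, 0.65 and 0.30 FPKM in SH1 and 0.50, 0.02 and 0.00 in SH3, which is at least 38.3-fold higher in SH1 and at least 15.1-fold higher in SH3 than 3 counts over the control group allow (edgeR adjusted p = 0.325 and 0.555, DESeq2 0.0329 and 0.173).

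ARHGEF16 was at 0.81, 0.46 and 0.91 FPKM in SH1 and at 0.00, 0.00 and 0.16 in SH3. It was at least 35.6-fold higher in SH1 than in control (edgeR adjusted p = 0.297). Limma-trend on log2(FPKM + 1) did call it in SH1 against control (adjusted p = 0.0141) and in SH3 against SH1 (0.0264). ARHGEF16 and ARHGEF1 are named because of values that were seen. ARHGEF1, a RhoA exchange factor regulated by heterotrimeric G proteins, was at 8.44, 3.96 and 8.84 FPKM in control, 0.00, 0.00 and 8.12 in SH1 and 3.24, 5.06 and 6.07 in SH3. SH1 3 stood with the controls and the other SH1 libraries were at 0. Of the settings tried, edgeR called it only without SH1 3, in SH1 against control (adjusted p = 0.00656), in the average (0.0103) and in SH3 against SH1 (0.0122).

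ARHGEF7, the Rac and Cdc42 exchange factor beta-PIX, varied least between replicate libraries of all members at 0.5 FPKM or more. Its level was 5.35 ± 0.596 FPKM in control, 6.48 ± 0.853 in SH1 and 6.15 ± 0.792 in SH3 (SD, n = 3), and the groups overlapped. DOCK1, which activates Rac together with ELMO proteins, was at 2.74, 0.00 and 0.00 FPKM in control, 3.39, 0.53 and 0.68 in SH1, and 5.45, 9.77 and 2.94 in SH3. In FPKM SH3 lay above control, by little between SH3 3 and control 1, one of the libraries behind the selection, and in scaled counts these 2 libraries overlapped. Its SD within control was larger than the control mean (0.913 ± 1.58). DOCK4, an exchange factor of Rac, was at 4.75 ± 1.98, 4.98 ± 2.18 and 3.01 ± 1.08 FPKM in control, SH1 and SH3. PLEKHG2 was at 1.01 ± 0.787, 0.590 ± 0.658 and 1.05 ± 0.147 FPKM. The groups overlapped for both genes.

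The ARHGAP genes, which encode GAPs, held the member with the highest level of all, ARHGAP23. It was at 10.8, 5.85 and 8.64 FPKM in control, 10.47, 8.32 and 9.41 in SH1 and 10.7, 16.6 and 13.7 in SH3. SH3 1 and control 1 were close together, and SH3 2 and SH3 3 were above all other libraries. In scaled counts, which weigh long transcripts more, SH3 did not overlap control. The log2 fold change in SH3 was 0.74 ± 0.27 against control (edgeR adjusted p = 0.492) and 0.74 ± 0.27 against SH1 (0.359).

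ARHGAP11A, a GAP that acts in dividing cells, was at 7.12, 8.49 and 13.7 FPKM in control, 7.37, 9.35 and 5.18 in SH1, and 3.17, 2.16 and 2.06 in SH3. The SH3 libraries were below all others in FPKM, though in scaled counts they overlapped SH1, and SH1 overlapped control. Its log2 fold change in SH3 was -1.75 ± 0.49 against control (edgeR adjusted p = 0.295, DESeq2 0.0209) and -1.26 ± 0.48 against SH1 (edgeR adjusted p = 0.378). Limma-trend also called it in SH3 against control, with a pseudocount of 1 (adjusted p = 0.0374) and of 0.1 (0.0354). Its value is uncertain, because 6 of its 7 listed rows are placements of transcripts that the annotation holds at more than 1 place, and because ARHGAP11B and ARHGAP11A-SCG5 share its sequence. With the highest listed transcript alone, the difference from SH1 was 0.15.

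ARHGAP11A-SCG5, a readthrough gene, was at 1.79, 1.99 and 1.87 FPKM in control, 0.94, 0.38 and 1.25 in SH1 and 1.66, 0.86 and 1.38 in SH3. All SH1 libraries were below control, with a log2 fold change of -1.30 ± 0.53 (edgeR adjusted p = 0.408). The 3 listed rows of ARHGAP11A-SCG5 are placements of 1 transcript, so its sum is uncertain. ARHGAP45 was at 0.31, 3.43 and 3.18 FPKM in control, 0.77, 0.32 and 0.38 in SH1, and 0.64, 0.61 and 0.80 in SH3. Control 2 and control 3 were above every knockdown library, and control 1 was below all of them. Its log2 fold change in SH1 was -2.34 ± 0.86 with all libraries (edgeR adjusted p = 0.351), and -3.30 ± 0.42 without control 1 and SH1 1 (adjusted p = 0.0412). Leaving out control 1 alone gave -2.87 ± 0.49 (0.0426). For the average it was -2.05 ± 0.68 (adjusted p = 0.326) and -2.78 ± 0.31 without them (0.0421). ARHGAP45 was the only member that edgeR called in those 7 libraries, where 0.895% of all genes were called in SH1 against control and 0.33% in the average.

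ARHGAP26 (GRAF1), a GAP that also bends membranes, was lower in SH3 (1.21, 0.63 and 0.83 FPKM) than in SH1 (1.39, 1.48 and 1.5) in all libraries, by -0.74 ± 0.31 on the log2 scale (edgeR adjusted p = 0.443), with control between 0.53 and 1.38. ARHGAP29, a RhoA GAP downstream of Rap1, was at 5.64 ± 3.50 FPKM in control, 3.94 ± 1.12 in SH1 and 4.62 ± 0.498 in SH3, and its groups overlapped. Over the 18 tested ARHGAP genes, 9 fold changes were positive and 9 negative in SH1, and 5 and 13 in SH3, with medians of -0.08 and -0.26. The first median changed sign over the alternative settings (-0.24 to 0.11), and the second ran from -0.37 to -0.04.

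RAPGEF3, known as EPAC1, is a Rap exchange factor opened directly by cyclic AMP. It was at 0.39, 0.51 and 1.62 FPKM in control, 1.21, 1.15 and 2.55 in SH1, and 0.20, 0.06 and 0.10 in SH3. The SH3 libraries were below all other libraries, and control 3 was above the other controls. For SH3 the log2 fold change was -3.31 ± 0.81 against SH1 (edgeR adjusted p = 0.140, DESeq2 0.000693) and -2.68 ± 0.79 against control (edgeR adjusted p = 0.354, DESeq2 0.0216). These values rest on 39 estimated counts over the 3 SH3 libraries, against 401 in SH1 and 227 in control.

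RAPGEF1, which acts downstream of Crk adaptors, was at 3.42 ± 1.02 FPKM in control, 4.01 ± 1.24 in SH1 and 3.59 ± 1.02 in SH3. RAPGEF2 was at 2.39 ± 0.829, 2.74 ± 0.956 and 1.14 ± 0.592. For both genes SH3 overlapped control, while every SH3 library of RAPGEF2 (1.70, 0.52 and 1.19) was below every SH1 library (2.30, 2.09 and 3.84).

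RASA4, a Ras GAP that responds to calcium, was at 0.63, 0.74 and 0.90 FPKM in control, 0.06, 0.10 and 0.43 in SH1 and 1.03, 0.48 and 1.13 in SH3. SH1 was below both other groups, at -2.10 ± 0.82 on the log2 scale against control (edgeR adjusted p = 0.386), and SH3 was above SH1 by 2.24 ± 0.83 (0.359). RASA4B is a near-identical copy of this gene, at 0.00 to 0.50 FPKM, so reads could be split between them. RASA3 was at 1.35 ± 0.743, 1.87 ± 0.862 and 1.63 ± 0.696 FPKM in control, SH1 and SH3, and RASAL2 at 0.597 ± 0.540, 1.08 ± 0.783 and 1.63 ± 0.579, with overlapping groups for both. The Ras GAPs RASA1 and RASA2 were not listed.

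DENN domain proteins load Rab GTPases with GTP and so choose which membranes they act on. In SH3 against SH1, 10 of 13 had a negative fold change and 3 a positive one, with a median of -0.71 (all genes 0.00), and 5 of the 13 lay below SH1 in all libraries (all genes 10.7%). Over the settings tried this median ran from -0.90 to -0.31. A negative median was not particular to DENND. It was -0.61 in RAPGEF (1 positive, 4 negative), -0.42 in ARFGEF (0 and 2), -0.37 in DOCK (1 and 8) and -0.15 in ARHGEF (8 and 9). Medians were -0.03 in TBC1D, 0.01 in ARHGAP, 0.13 in PLEKHG and 0.28 in RASA. An unadjusted p under 0.05 was reached by 2 of the 13 DENND genes, DENND4B and DENND5B, both lower in SH3 (all genes 5.22%).

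DENND4B was at 2.87, 8.25 and 8.40 FPKM in control, 4.75, 5.88 and 6.82 in SH1, and 1.81, 0.66 and 2.08 in SH3. The SH3 libraries were below all others, and control 1 was nearer to SH3 3 than to the other controls. On the log2 scale SH3 differed by -2.19 ± 0.56 against control (edgeR adjusted p = 0.238, DESeq2 0.00582) and -1.86 ± 0.55 against SH1 (edgeR adjusted p = 0.234, DESeq2 0.0192). Without control 1 and SH1 1 these were -2.56 ± 0.48 (edgeR adjusted p = 0.171) and -2.04 ± 0.47 (0.165).

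DENND5B was at 5.02, 3.81 and 5.12 FPKM in control, 6.37, 6.45 and 5.15 in SH1, and 4.06, 2.54 and 2.44 in SH3. SH3 was below SH1 throughout and overlapped the lowest control in FPKM, though not in scaled counts. In SH3 the log2 fold change was -1.42 ± 0.36 against SH1 (edgeR adjusted p = 0.151, DESeq2 0.00583) and -1.13 ± 0.36 against control (edgeR adjusted p = 0.404, DESeq2 0.0756). DENND10 was at 1.71, 1.91 and 0.35 FPKM in control, 1.47, 0.93 and 0.91 in SH1 and 0.15, 0.30 and 0.00 in SH3. Each SH3 value was under each control value, with a log2 fold change of -3.14 ± 1.36 (edgeR adjusted p = 0.594).

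DENND4A was at 0.67, 1.13 and 1.25 FPKM in control, 2.10, 2.47 and 1.93 in SH1, and 1.32, 1.59 and 0.69 in SH3. SH1 was above both other groups, by 1.00 ± 0.42 on the log2 scale against control (edgeR adjusted p = 0.414). DENND5A, which had 1 listed transcript, was at 12.1, 6.76 and 14.5 FPKM in control, 4.78, 2.74 and 9.15 in SH1, and 0.41, 9.01 and 11.7 in SH3, so its libraries differed within each group by more than the group means did. DENND2A was at 3.45 ± 1.03, 5.997 ± 2.14 and 5.24 ± 0.363 FPKM in control, SH1 and SH3, and all 3 SH3 libraries (5.52, 5.37 and 4.83) were above the highest control (4.24). DENND4C, which acts on Rab10, was at 1.61 ± 0.462, 1.44 ± 0.963 and 1.25 ± 0.687 FPKM. DENND1A, which acts on Rab35, was at 0.960 ± 0.382, 0.750 ± 0.372 and 0.483 ± 0.656 FPKM, with overlapping groups in both.

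Many TBC domain proteins are GAPs of Rab GTPases, though not every TBC1D gene had a term for that activity. The TBC1D genes were the largest family, with 26 of 27 tested. Fold changes were positive for 13 and negative for 13 in SH1 (median 0.00), positive for 19 and negative for 7 in SH3 (median 0.25), and 13 and 13 in SH3 against SH1 (median -0.03). Over the settings the SH3 median ran from -0.03 to 0.35. TBC1D1, an AKT substrate that controls glucose transporter traffic, was at 6.18, 2.56 and 5.35 FPKM in control, 2.38, 3.04 and 0.18 in SH1 and 7.74, 14.2 and 8.90 in SH3. SH3 was above both other groups, and SH1 overlapped the lowest control. The log2 fold change in SH3 against SH1 was 2.67 ± 0.88 (edgeR adjusted p = 0.285, DESeq2 0.0276). TBC1D4 (AS160), its close relative, was at 0.357 ± 0.216, 0.400 ± 0.0693 and 0.400 ± 0.269 FPKM in control, SH1 and SH3.

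TBC1D9B was at 8.70, 10.37 and 14.98 FPKM in control, 0.37, 5.16 and 1.44 in SH1, and 2.12, 6.43 and 5.81 in SH3. All 6 knockdown libraries were below all controls. The log2 fold change was -2.43 ± 0.88 in SH1 (edgeR adjusted p = 0.340) and -1.88 ± 0.70 for the average (0.395). Both of its listed rows are placements of transcripts that the annotation holds at more than 1 place, and its sum is uncertain for that reason. TBC1D2B was at 6.39 ± 3.04, 6.44 ± 1.33 and 7.72 ± 0.927 FPKM, with overlapping groups, except that in scaled counts SH3 was above SH1.

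Members of the TBC1D3 cluster are near-identical copies of one another, and reads cannot be assigned to them with certainty. The 6 copies listed (TBC1D3C, TBC1D3G, TBC1D3H, TBC1D3I, TBC1D3K and TBC1D3L) were at 0.00 to 0.71 FPKM in every library. TBC1D3G was at 0 in all controls and at least 13.0-fold higher in SH1 (edgeR adjusted p = 0.326). It passed the filter on low counts through knockdown libraries alone, so it could only be higher there. TBC1D22A was at 0 in all SH3 libraries and at least 47.7-fold lower than in control (adjusted p = 0.557), although control 3 was at 0 as well. With 0 counts in SH3, TBC1D22A could only be lower in that group. These copies and TBC1D22A were named after their values were seen.

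TBC1D7 is the third subunit of the TSC1-TSC2 complex, which restrains mTORC1 through Rheb. Its sum was 4.37, 3.21 and 5.26 FPKM in control, 6.64, 7.59 and 4.57 in SH1 and 6.0, 5.08 and 5.56 in SH3, with overlapping groups. Its listed transcripts differed more than the sum. NM_001143964 was at 0.00 FPKM in all 3 controls, at 3.08, 1.5 and 1.87 in SH1 and at 2.81, 1.55 and 1.59 in SH3. Every knockdown library held it, at least 45.6-fold higher in SH1 and at least 44.4-fold higher in SH3 than 3 counts over the control group. With 0 counts in control it passed the filter on low counts through knockdown libraries alone, so it could only be higher there. Control 1 and SH1 1, the pair that selected the listed rows, are part of these values. DESeq2 on transcripts called it in SH1 (adjusted p = 8.59e-05) and in SH3 (0.00013), and limma-trend with a pseudocount of 0.1 called it in SH1 (0.0286), while edgeR did not.

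**Figure D3:**
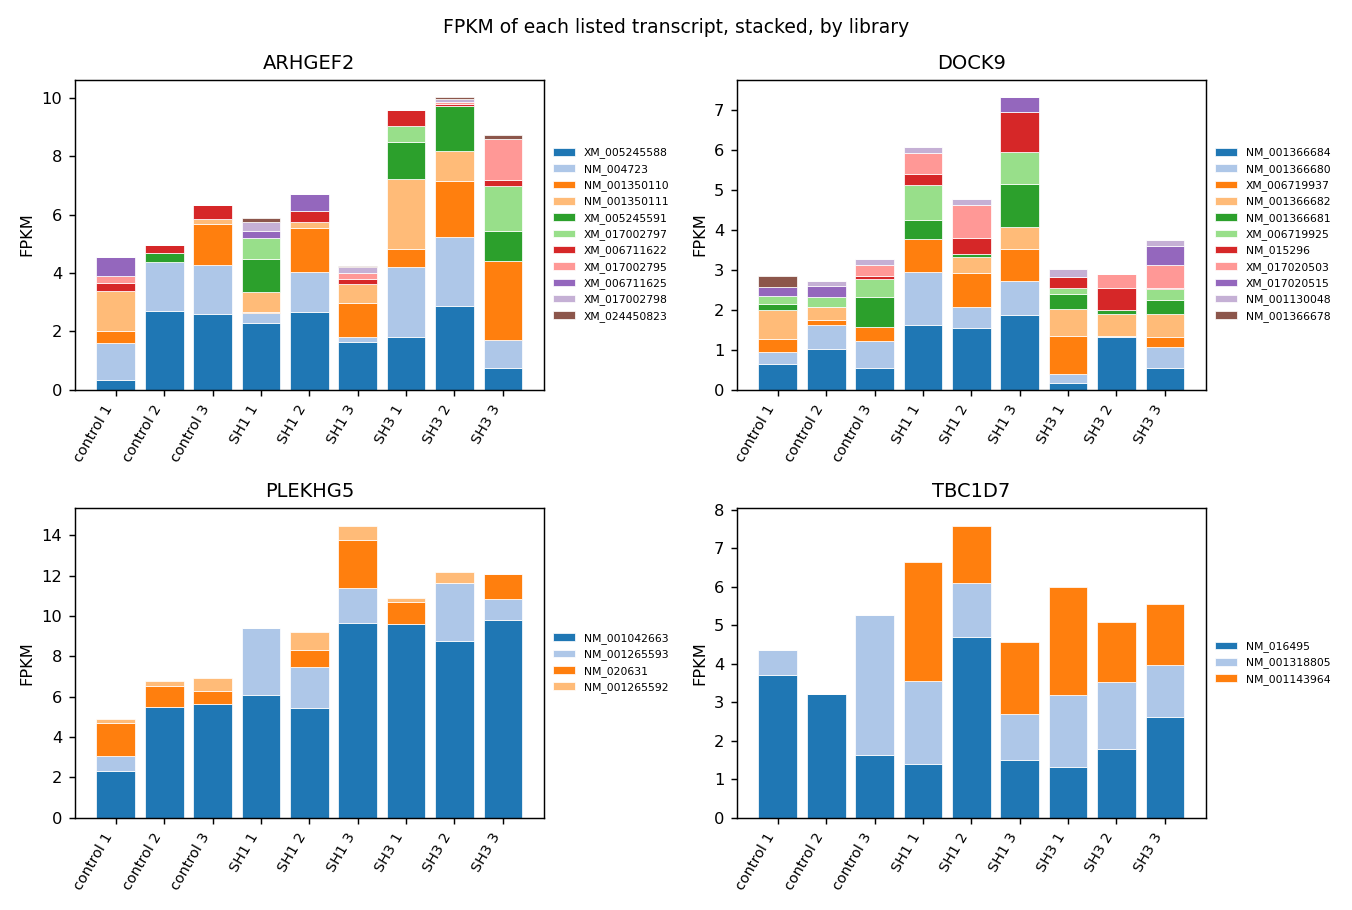
FPKM of each listed transcript (stacked bars, vertical axis starting at 0) in the 9 libraries for ARHGEF2, DOCK9, PLEKHG5 and TBC1D7. The leading transcript of ARHGEF2 and DOCK9 changes from library to library, that of PLEKHG5 does not, and NM_001143964 of TBC1D7 appears in the 6 knockdown libraries only.

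Arf exchange factors of the ARFGEF family activate Arf proteins at the Golgi and the trans-Golgi network. ARFGEF1 was at 0.00, 2.56 and 2.09 FPKM in control, 2.14, 2.25 and 6.30 in SH1 and 2.84, 3.81 and 2.93 in SH3. Control 1 stood apart from the other controls, and all SH3 libraries were above all controls in FPKM, though not in scaled counts. ARFGEF2 was at 1.05, 7.84 and 9.80, 2.58, 4.10 and 7.73, and 2.77, 0.45 and 4.84 FPKM in the same order, and its groups overlapped. Each of these genes had 1 listed transcript, a predicted one.

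Transcripts of 1 member often differed in opposite directions. Of the 339 transcripts, 189 were higher and 150 lower in SH1 1 than in control 1, the pair that chose them. Of the 69 members with more than 1 listed transcript, 59 had transcripts in both directions, and in 50 of these 59 the sums differed by less than 2-fold in that pair. No value is read from that pair beyond this description.

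On single transcripts, edgeR called 0 of 283 tested member transcripts in each of the 4 comparisons, against 0.131%, 0.0286%, 0.12% and 0.0972% of all transcripts in SH1, SH3, the average and SH3 against SH1. At an unadjusted p under 0.05 there were 24 member transcripts in SH1 (8.48%, all transcripts 7.83%) and 23 in SH3 (8.13%, all transcripts 5.87%). In the average and in SH3 against SH1 there were 20 (7.07%, all transcripts 7.37%) and 21 (7.42%, all transcripts 6.25%). DESeq2 called 1, 4, 4 and 4, against 2.81%, 2.05%, 2.62% and 2.32% of all transcripts. Beside TBC1D7 these were transcripts of ARHGAP45, ARHGAP11A-SCG5 and ARHGAP23 in SH3, of ARHGAP11A-SCG5, ARHGAP23 and TBC1D5 in the average, and of RAPGEF3, DENND2A and TBC1D31 in SH3 against SH1. The ARHGAP11A-SCG5 row was higher in SH3 (DESeq2 log2 fold change 8.58) and in the average (7.61), opposite to the sum of its gene. The 3 listed rows of that gene are placements of 1 transcript, so this call is uncertain.

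The transcripts described next were picked from those that DESeq2 called, after their values were seen. XM_011525075 of ARHGAP23 was at 0.74, 0.56 and 1.44 FPKM in control, 4.54, 2.35 and 1.48 in SH1 and 6.20, 12.1 and 6.83 in SH3. All knockdown libraries were above all controls, whereas the sum of ARHGAP23 overlapped between SH1 and control. NM_001349088 of TBC1D5 was at 0.00, 0.00 and 0.08 FPKM in control, 0.73, 0.86 and 0.35 in SH1 and 0.73, 0.71 and 0.41 in SH3. It was above control in all 6 knockdown libraries, while the sum of TBC1D5, a retromer-associated Rab GAP, was at 3.55 ± 0.950, 4.31 ± 0.729 and 4.57 ± 0.347 FPKM. NM_001098532 of RAPGEF3 was at 0.49, 0.53 and 0.43 FPKM in SH1 and at 0.00 in all SH3 libraries, in the direction of the gene's sum. NM_015689 of DENND2A was at 1.09, 1.73 and 5.25 FPKM in SH1 and 0.02, 0.00 and 0.00 in SH3, although the sums of DENND2A in those groups overlapped.

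Sums over many listed transcripts varied less between replicate libraries. Among the 71 members with a mean of at least 0.5 FPKM, the median within-group coefficient of variation (SD divided by mean, averaged over the 3 groups) was 69.0% for the 12 members with 1 listed transcript, 45.5% for the 38 with 2 to 4, 27.2% for the 11 with 5 to 7 and 23.1% for the 10 with 8 or more. In 50 of the 59 with more than 1 transcript, the sum varied less than its highest transcript did. Of the 339 transcripts, 289 were at 0 FPKM in at least 1 library. In ARHGEF2, 4 different transcripts led in the 9 libraries, and XM_005245588 made up 6.81% to 54.3% of the sum. In DOCK9, 5 different transcripts led, and NM_001366684 made up 5.28% to 45.2%.

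**Figure D4:**
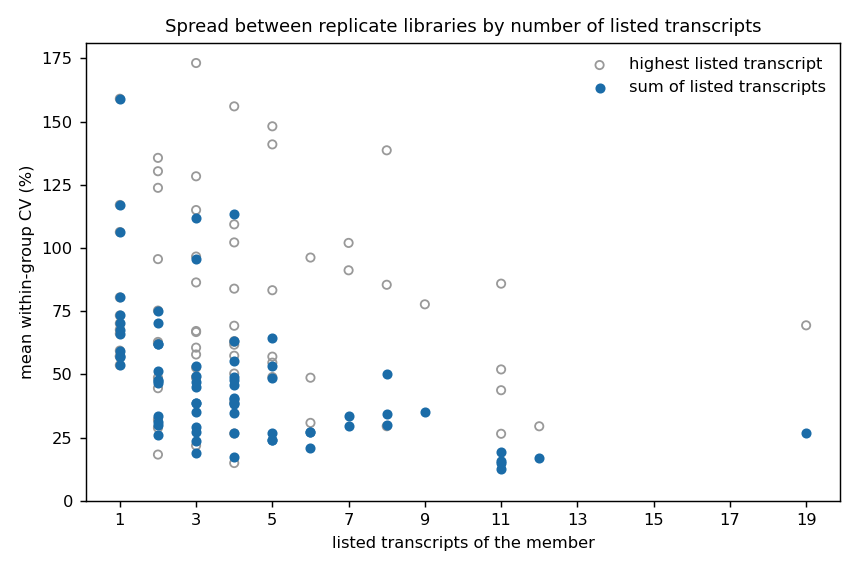
Mean within-group coefficient of variation in percent (vertical axis) against the number of listed transcripts (horizontal axis) for the 71 members with a mean of at least 0.5 FPKM. Filled points are gene sums and open points the highest listed transcript of the same gene; sums of members with 1 listed transcript lie between 53.7% and 159%, and those with 8 or more between 12.4% and 50.1%.

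The genes around these regulators were taken from further lists. Among the GTPases, edgeR called 0 in every comparison of the 8 tested members of the Ras and Rap families, the 21 Rab and the 9 Arf family members. The same held for 5 tested genes of a list of GDP dissociation inhibitors, for 26 other Arf regulators and for 17 other Rab regulators. GDP dissociation inhibitors keep GTPases off membranes, and their list also held CHM, CHML and RAP1GDS1, which have other roles. Of 17 other Ras, Rap and Ral regulators 1 was called, lower, in SH1 against control, where 2.14% of all genes were called, and 0 in the other comparisons.

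FMNL1, a formin that extends actin filaments, was the other surrounding gene that edgeR called in SH1. It was at 2.67, 3.83 and 4.51 FPKM in control, 11.6, 15.3 and 15.6 in SH1, and 5.18, 6.15 and 5.33 in SH3. SH1 was above all other libraries, and FMNL1 rose in SH1 by 1.75 ± 0.25 on the log2 scale (edgeR adjusted p = 0.0133). It passed on the other 7 libraries too (1.73 ± 0.18, adjusted p = 0.0228), but not without SH1 2 (0.0678). The Ras, Rap and Ral regulator was RAP1GAP2, a GAP that turns off Rap1, which RAPGEF proteins turn on. It was at 0.90, 1.57 and 1.70 FPKM in control, 0.32, 0.08 and 0.21 in SH1, and 0.34, 0.53 and 0.47 in SH3. All knockdown libraries were below control, and RAP1GAP2 fell in SH1 (log2 fold change -2.94 ± 0.59, edgeR adjusted p = 0.0484). Its direction was the same without any 1 library, but the call was lost each time (adjusted p = 0.0583 to 0.156), and also on the other 7 libraries (0.0761).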

How the data were processed

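RNA-seq of 9 Caki-1 libraries was analysed from 1 deposited table of transcripts. Per the file headers, the authors deposited an estimated count, FPKM, TPM and a normalized read count (a signal: whole estimated counts scaled with a constant of each library) for each transcript. The aligner and counter are not given in the sources used here. The submitters' processing notes name the mouse build mm10, while the gene numbers are human, so no coordinates are printed. Levels are sums of FPKM, and TPM gave the listed share.

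Estimated counts were summed per gene number, rounded and tested with edgeR 4.0.16 (R 4.3.3) by the quasi-likelihood test: TMM, filterByExpr (minimum count 10), robust, all 9 libraries in 1 fit with a mean per group, Benjamini-Hochberg over all genes tested, threshold 0.05. Transcripts were tested in the same way. SE is the log2 fold change divided by the root of F. Alternatives were DESeq2 1.42.0, limma-trend (limma 3.58.1, pseudocounts 1 and 0.1), other scalings and filters, and fits without libraries. The scripts were tested on simulated data. Bounds against a group at 0 use 3 counts over the group and cover counting error only. Members, lists and tests were chosen with earlier results of these data known. Named are members called by edgeR or DESeq2, up to 6 per comparison and direction with the smallest unadjusted p under 0.05 and a mean of at least 0.5 FPKM, the highest 2 of each family, and 20 fixed genes. Of these 20, ARHGEF12, ARHGAP1, ARHGAP35, DOCK5, RASA1 and RASA2 were not listed in the table. One further member and some of the lists of surrounding genes are not reported here.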

Additional observations from a re-analysis of the deposited data

How the results depend on the processing

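Counts are given for SH1, SH3, the average and SH3 against SH1, in that order. Against 0 members by edgeR, DESeq2 called 3, 5, 2 and 6, limma-trend 1, 1, 0 and 1 with either pseudocount, and edgeR without control 1 and SH1 1 called 1, 0, 1 and 0. Against 0 member transcripts, DESeq2 called 1, 4, 4 and 4, and limma-trend with a pseudocount of 0.1 called 1 in SH1 and 1 in the average. Leaving out 1 library at a time gave 0 to 1 members, except 0 in SH3, and 0 to 1 member transcripts in SH1 (0 in the others). Calls among all genes, 137, 26, 71 and 87, were 461, 258, 360 and 415 with DESeq2, 47, 8, 9 and 54 in fits of only the groups compared, 57, 7, 21 and 56 without control 1 and SH1 1, and 36, 11, 24 and 18 with the highest listed transcript. Limma-trend called 63 in SH3 and 142 in SH3 against SH1 with a pseudocount of 1, and 56 and 141 with 0.1. Without 1 library the ranges were 59 to 110, 11 to 25, 27 to 59 and 32 to 92. The labels do not state that their numbers pair the libraries. Correlations of same-numbered deviations ran from -0.065 to 0.076, and those of differently numbered ones from -0.056 to 0.095. Between SH1 and SH3 the same-numbered ones were 0.033 to 0.076 and the others -0.056 to -0.0056. These small values do not settle whether libraries were paired. With the replicate block 88, 12, 39 and 39 of all genes were called and 0 members, and RAP1GAP2 was no longer called (adjusted p = 0.173). Of 770 alternative values of 35 fold changes, 727 kept direction and side of the threshold, 20 passed it, 20 (FMNL1 and RAP1GAP2) lost it and 3 reversed, all with the highest listed transcript: ARHGAP11A in SH3 against SH1 (0.15) and ARHGEF2 in SH3 against SH1 (-0.29) and against control (-0.15). Why these moved was not tested. Listed sums hold part of each gene, and depth limits members at few counts.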
